A study of Homo sapiens with 6 samples.

Results

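LURAP1L, the leucine rich adaptor protein gene with the highest fold rise after TR-107 among genes above a minimum level, was examined with 5 genes tied to it. These were LURAP1L-AS1, the non-coding gene on its opposite strand, its paralog LURAP1, the kinase genes CDC42BPA and CDC42BPB, and the myosin gene MYO18A. The 6 genes were found by NCBI Gene ID among the 28395 gene IDs of each count file. LURAP1L was chosen for its fold change between these same libraries, so its own change is given as a description with no test. The other 5 were chosen by name, for their relation to LURAP1L. The libraries came from the established cell line HCT116, from a human colorectal carcinoma, in 2 groups of 3. Cells stood for 24 h in medium with 50 nM TR-107, a small-molecule agonist of the mitochondrial matrix protease ClpP, or in medium with 0.1% DMSO, the vehicle control. The labels number 3 replicates per condition, and the design text of the series names them biological replicates. The labels do not say whether these were separate cultures. The spread behind each p-value is therefore that of these libraries and may be technical.

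LURAP1, also called LRAP35a, is an adaptor that ties the MRCK kinases to the unconventional myosin MYO18A. The MRCK kinases bind the active form of the small GTPase CDC42 and phosphorylate myosin light chains, and the 3-part complex is known for driving the rearward flow of actomyosin in the lamella of spreading and migrating cells. CDC42BPA encodes MRCK alpha and CDC42BPB encodes MRCK beta. LURAP1L, also called LRAP35b, shares the leucine repeat family with LURAP1, and less is known of its own role.

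LURAP1L (gene ID 286343) lies on the plus strand of GRCh38 chromosome 9, 12775020 to 12823060, with 3 blocks of exons in GENCODE release 29. LURAP1L-AS1 (gene ID 101929467) runs against it on the minus strand from 12814389 down to 12699999. It starts 39369 bases inside LURAP1L, in the intron before the last exon, and 82.0% of the LURAP1L span lies within it. The exons of LURAP1L and LURAP1L-AS1 shared 0 bases in that annotation. At its far end LURAP1L-AS1 shared 102 exonic bases with TYRP1, a melanin synthesis gene.

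**Figure D1:**
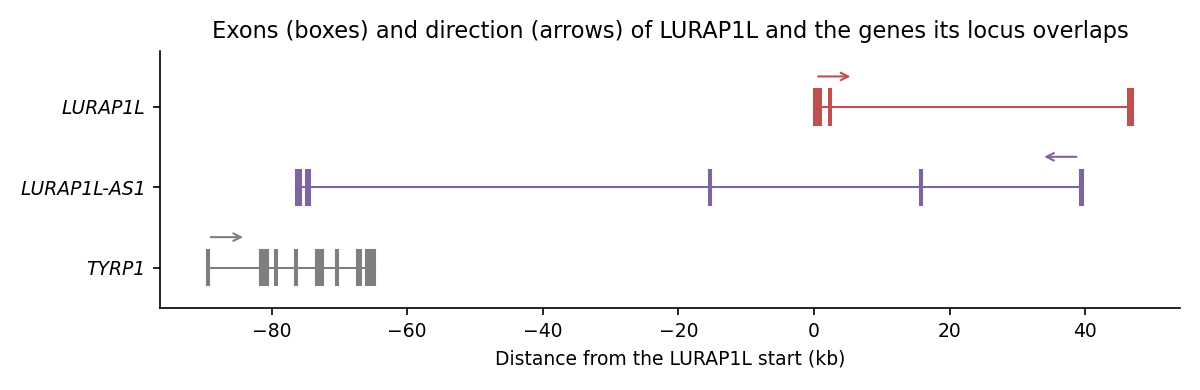
Exon blocks (boxes, narrow ones widened to be visible) and direction of transcription (arrows) of LURAP1L, LURAP1L-AS1 and TYRP1 against distance from the LURAP1L start in kb. LURAP1L-AS1 starts 39369 bases inside LURAP1L and runs back past its start, with 0 exonic bases shared between them.

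The start sites of the sense and antisense gene are shown because the sense gene carries the large change and both starts lie in 1 locus. The sequences are from RefSeq on GRCh38.p14, each from 250 bases before to 50 bases after the start, written 5′ to 3′ on the strand of the gene. The LURAP1L window is chr9:12774770-12775069, plus strand, and the LURAP1L-AS1 window is chr9:12814340-12814639, minus strand. Capitals mark matches on either strand to TGATGNAA, the composite element bound by C/EBP and ATF factors, and to TGANTCA, the AP-1 element.
LURAP1L: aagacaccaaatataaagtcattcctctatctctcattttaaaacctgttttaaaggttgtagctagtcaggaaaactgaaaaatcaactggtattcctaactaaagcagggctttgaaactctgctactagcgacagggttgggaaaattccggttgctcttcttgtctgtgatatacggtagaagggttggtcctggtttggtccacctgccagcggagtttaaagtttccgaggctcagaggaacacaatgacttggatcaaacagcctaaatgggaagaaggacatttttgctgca
LURAP1L-AS1: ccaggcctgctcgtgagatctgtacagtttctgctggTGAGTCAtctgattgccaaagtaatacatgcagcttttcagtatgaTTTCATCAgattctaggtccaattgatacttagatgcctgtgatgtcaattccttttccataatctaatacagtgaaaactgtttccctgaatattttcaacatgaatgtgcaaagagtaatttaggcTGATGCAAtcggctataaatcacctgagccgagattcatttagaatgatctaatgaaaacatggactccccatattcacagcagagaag

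The LURAP1L window held no match to TGATGNAA, to TGANTCA or to TGACNNNGC, the core of the antioxidant response element. The LURAP1L-AS1 window held 2 matches to TGATGNAA, which began at positions -167 and -39 relative to its start and did not overlap another motif searched, and 1 match to TGANTCA, which began at position -213. Among 35116 RefSeq promoter windows of the same 300 bases, 3.62% held TGATGNAA, 7.71% held TGANTCA and 13.3% held TGACNNNGC on either strand. The windows of LURAP1, CDC42BPA and CDC42BPB held none of the 3 motifs, and 2 of the 3 windows of MYO18A held TGACNNNGC. Both starts of the chromosome 9 locus were poorer in G and C than most promoters, at 42.3% for LURAP1L and 39.0% for LURAP1L-AS1, against a median of 58.7% over all windows. The 2 kinase genes had GC-rich windows, at 79.0% for CDC42BPA and 83.3% for CDC42BPB. A match is a run of letters and not a measured binding site.

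LURAP1L was among the more abundant detected genes in all 3 TR-107 libraries, and low but above the level of 3 counts in all 3 DMSO libraries. Levels are in CPM, the gene's count scaled to the TMM-adjusted library size. LURAP1L had 1017, 1013 and 1289 counts in the TR-107 libraries, against 30, 19 and 43 counts in the DMSO libraries (replicates 1, 2 and 3). In CPM these were 59.4, 55.5 and 60.1 in TR-107, against 1.61, 0.830 and 1.78 in DMSO. The groups were far apart, and the lowest library, DMSO replicate 2, rested on 19 counts. The fitted log2 fold change was 5.38 ± 0.14 (SE, n = 3 each), or 41.5-fold. The DMSO libraries spread more in proportion to their mean than the TR-107 libraries, with a coefficient of variation of 4.23% in TR-107 and 35.9% in DMSO. In bulk RNA, a rise in every cell and a larger rise in fewer cells cannot be told apart.

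By raw count, LURAP1L ranked between 3882 and 4212 among the 16199 to 16596 genes with a count in a TR-107 library, and between 11768 and 12833 among the 16669 to 17069 genes with a count in a DMSO library. Of all 13767 genes tested, 6 had a higher log2 fold change than LURAP1L. Those 6 averaged 0.598 to 4.07 CPM over the 6 libraries, below the minimum mean of 5 CPM set here for comparing the profiles of genes. With that minimum the next gene down was SPRR2D, a gene of the epidermal cornified envelope, at a log2 fold change of 5.19. SPRR2D passed the minimum narrowly and through TR-107 alone (9.73 CPM, against 0.274 CPM in DMSO), so its place depends on where the minimum is set. LURAP1L passed it by a wider margin, but also through TR-107 alone (58.3 CPM, against 1.4 CPM in DMSO).

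LURAP1L-AS1 was too low for the test. It had 6, 5 and 11 counts in the TR-107 libraries and 1, 4 and 8 counts in the DMSO libraries. In CPM these were 0.351, 0.274 and 0.513 in TR-107, against 0.0535, 0.175 and 0.331 in DMSO. The groups overlapped, since DMSO replicate 3 lay above TR-107 replicate 2. Per effective library size the summed counts, 22 in TR-107 and 13 in DMSO, stood in a ratio of 1.96 (exact 95% interval 0.944 to 4.23, counting error only). Without DMSO replicate 3 the log2 of that ratio was 1.69, against 0.97 with all libraries. LURAP1L-AS1 made up 0.587%, 0.491% and 0.846% of the counts of the sense and antisense gene together in TR-107, against 3.23%, 17.4% and 15.7% in DMSO. Those DMSO shares rest on 23 to 51 counts in all, and the exact 95% (Clopper-Pearson) interval of the lowest, 0.0816% to 16.7%, overlaps the TR-107 intervals, which lie between 0.160% and 1.51%. The intervals of DMSO replicates 2 and 3, 4.95% to 38.8% and 7.02% to 28.6%, lie above all 3 TR-107 intervals. The denominator of this share holds LURAP1L, so it moves with the gene for which the locus was chosen.

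LURAP1 (gene ID 541468, chromosome 1, 46203334 to 46221256), the paralog and the adaptor for which the complex was described, was also too low for the test. It had 1, 5 and 2 counts in TR-107 and 1, 6 and 0 counts in DMSO. The summed counts, 8 in TR-107 and 7 in DMSO, stood in a ratio of 1.32 (exact 95% interval 0.419 to 4.28, counting error only). The sign of its log2 ratio, 0.40, turned to -0.45 without TR-107 replicate 2 and to -0.26 without DMSO replicate 3, and the value was 2.59 without DMSO replicate 2. A difference in LURAP1 was not detectable at this depth. Its exons share 601 bases with those of POMGNT1 on the opposite strand, and the strand setting of the counting is not given in the sources used here, so even these few counts are uncertain.

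**Figure D2:**
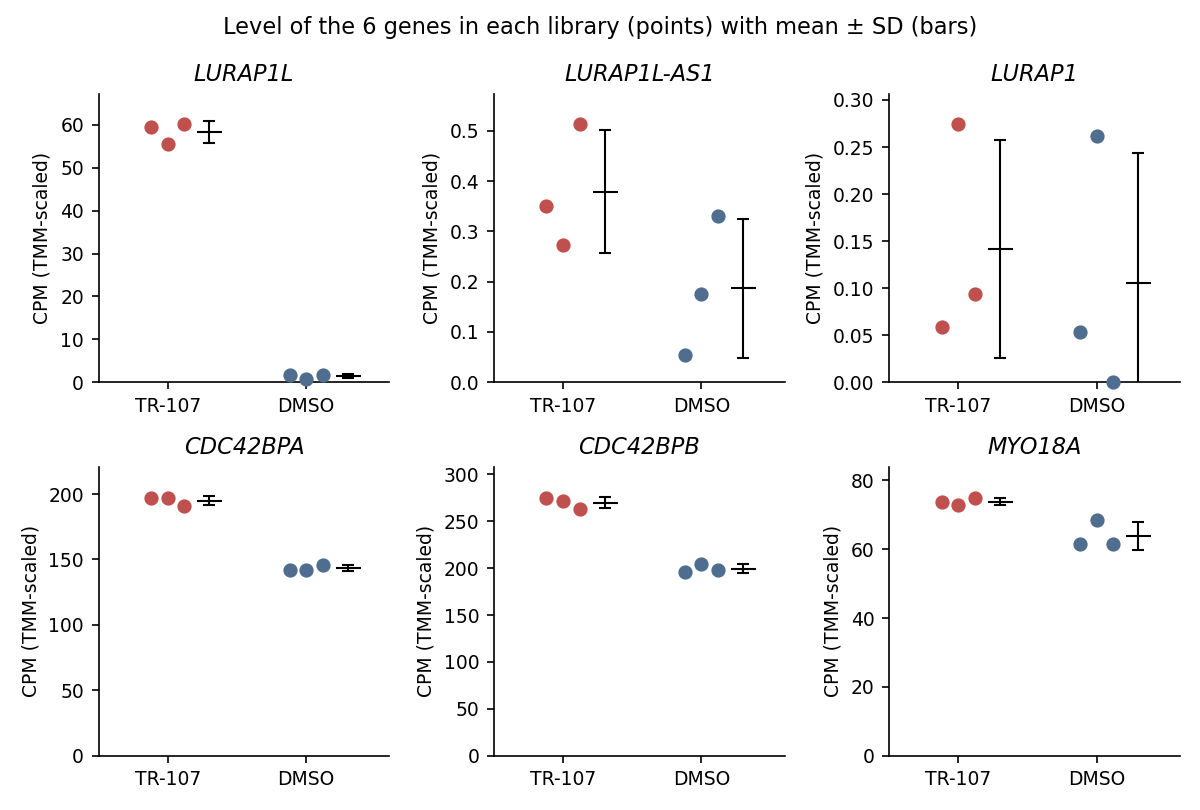
Level of each of the 6 genes (CPM, linear axes from 0, a scale for each panel) in the 3 TR-107 and 3 DMSO libraries (points, replicates 1 to 3 from left), with the mean ± SD beside them, cut at 0. TR-107 libraries stand at 55.5 to 60.1 CPM of LURAP1L and DMSO libraries at 0.830 to 1.78 CPM, whereas LURAP1L-AS1 and LURAP1 overlap between groups.

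Both MRCK kinases and MYO18A, the partners that the adaptor family joins, were already present in DMSO and were higher after TR-107. CDC42BPA was 1.36-fold higher, CDC42BPB 1.35-fold and MYO18A 1.15-fold. All 3 passed edgeR's quasi-likelihood test at an adjusted p of 0.05, where 29.2% of all genes tested were called higher and 28.6% were called lower. Changes of this size were common: 41.3% of tested genes had a larger absolute log2 fold change than CDC42BPA, 42.3% a larger one than CDC42BPB and 69.4% a larger one than MYO18A.

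CDC42BPA (gene ID 8476, chromosome 1, 226989858 to 227318492) had 197, 197 and 191 CPM in TR-107, against 142, 142 and 146 CPM in DMSO. Its 3 TR-107 libraries lay above all 3 DMSO libraries, as one side did above the other for 62.4% of all genes tested. The log2 fold change was 0.45 ± 0.05 (SE; edgeR adjusted p = 2.41e-11). CDC42BPB (gene ID 9578, chromosome 14, 102932380 to 103057549) had 275, 272 and 263 CPM in TR-107, against 196, 205 and 198 CPM in DMSO, again with no overlap. Its log2 fold change was 0.43 ± 0.04 (SE; edgeR adjusted p = 8.56e-12). CDC42BPB shares 761 exonic bases with AMN and 270 with an antisense gene, both on the opposite strand. CDC42BPA shares 440 exonic bases with an antisense gene of its own locus.

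The balance between the 2 kinases was nearly the same in both groups. CDC42BPA took 41.8%, 42.0% and 42.1% of the counts of both kinases in TR-107, against 42.0%, 40.8% and 42.5% in DMSO. The TR-107 shares, 42.0 ± 0.148%, lay inside the range of the DMSO shares, 41.8 ± 0.865% (SD, n = 3 each). These are shares of counts, not of molecules, because the exons of CDC42BPA are longer in sum than those of CDC42BPB.

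MYO18A (gene ID 399687, chromosome 17, 29071122 to 29180398), an unconventional myosin with a PDZ domain that binds actin, had 73.7, 72.8 and 74.9 CPM in TR-107. In DMSO it had 61.6, 68.6 and 61.4 CPM. The groups did not overlap, as was so for 62.4% of all genes tested, but DMSO replicate 2 was the closest DMSO library to the TR-107 libraries. The log2 fold change was 0.21 ± 0.06 (SE; edgeR adjusted p = 0.00440), and with library size alone in place of TMM it was 0.14 (adjusted p = 0.0480). TIAF1, which the RefSeq table lists as a synonym of MYO18A, shares 1394 exonic bases with it in GENCODE release 29.

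**Figure D3:**
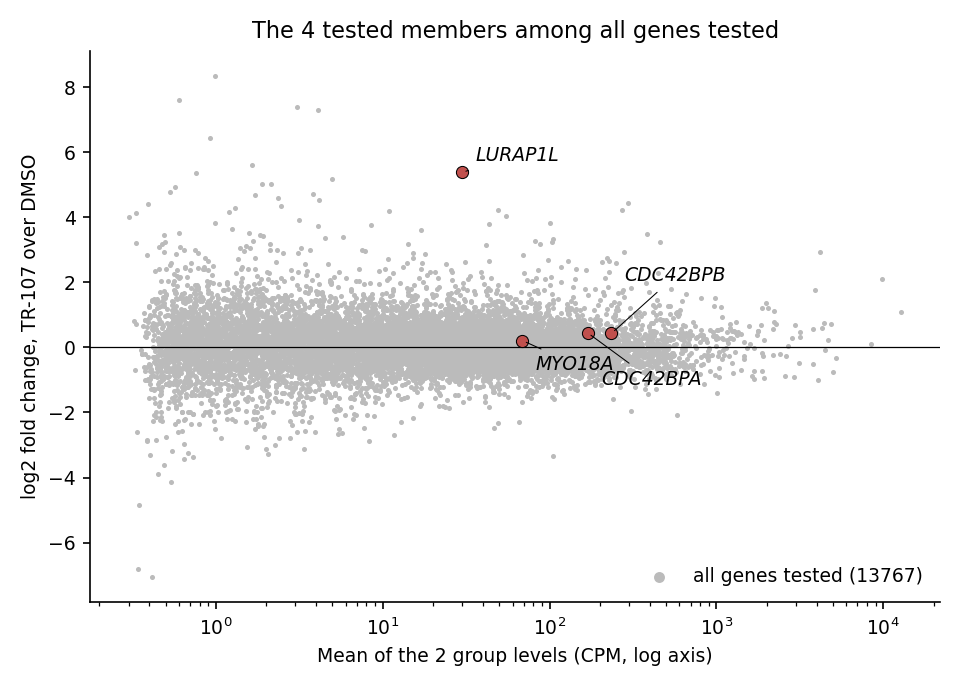
Log2 fold change, TR-107 over DMSO, against the mean of the 2 group levels (CPM, log axis) for all 13767 genes tested (grey) and the 4 tested members (red). LURAP1L stands at 5.38, above the other genes at its level, and CDC42BPA (0.45), CDC42BPB (0.43) and MYO18A (0.21) lie within the main body of genes.

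Levels of different genes were compared as CPM per kb of GENCODE release 29 exons. In TR-107 the order was CDC42BPB (33.7 ± 0.777), LURAP1L (27.4 ± 1.16), CDC42BPA (13.9 ± 0.257), MYO18A (4.90 ± 0.0707), LURAP1L-AS1 (0.220 ± 0.0708) and LURAP1 (0.0765 ± 0.0624). In DMSO it was CDC42BPB (24.9 ± 0.629), CDC42BPA (10.2 ± 0.173), MYO18A (4.24 ± 0.271), LURAP1L (0.659 ± 0.237), LURAP1L-AS1 (0.108 ± 0.0808) and LURAP1 (0.0568 ± 0.0747; SD, n = 3 each). LURAP1L thus stood above CDC42BPA and MYO18A in TR-107 and below both in DMSO, and the other 5 kept their order among themselves. LURAP1L-AS1 and LURAP1 did not differ beyond their spread in DMSO, and in TR-107 both rested on 11 counts or fewer in any library. LURAP1L was the adaptor with the higher level in both groups.

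Most measured neighbours on chromosome 9 were at 0. Of 36 RefSeq genes within 2 Mb of LURAP1L, 11 had a row in the count files, and 7 of these had 0 counts in all 6 libraries, MPDZ, 283 kb to the right, among them. TYRP1 had 1, 0 and 0 counts in TR-107 and 0, 6 and 0 counts in DMSO. NFIB, a transcription factor gene 1259 kb to the right, was tested and not called, at 15.3 ± 0.841 CPM in TR-107 and 16.9 ± 1.47 CPM in DMSO (SD, n = 3 each; edgeR adjusted p = 0.320). ZDHHC21, a palmitoyltransferase gene 1766 kb to the right, rose to 23.9 ± 2.45 CPM in TR-107, against 15.4 ± 1.46 CPM in DMSO (SD, n = 3 each), and its log2 fold change was 0.63 ± 0.11 (SE; edgeR adjusted p = 6.24e-06).

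The 5 genes whose centred log2 CPM lay closest to that of LURAP1L over the 6 libraries were SPRR2D, DDIT4, CHAC1, UPP1 and IL20RB. The measure was Euclidean distance among the 10546 genes averaging 5 CPM or more, with values of 1.19, 1.30, 1.42, 1.58 and 1.61, against a median of 6.60. With 2 groups of 3 this distance mostly reflects the size of the fold change. IL20RB, an interleukin receptor subunit gene, had 20.7 ± 1.25 CPM in TR-107 and 1.14 ± 0.259 CPM in DMSO (SD, n = 3 each), so that it was the one of the 5 nearest to LURAP1L in DMSO level.

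**Figure D4:**
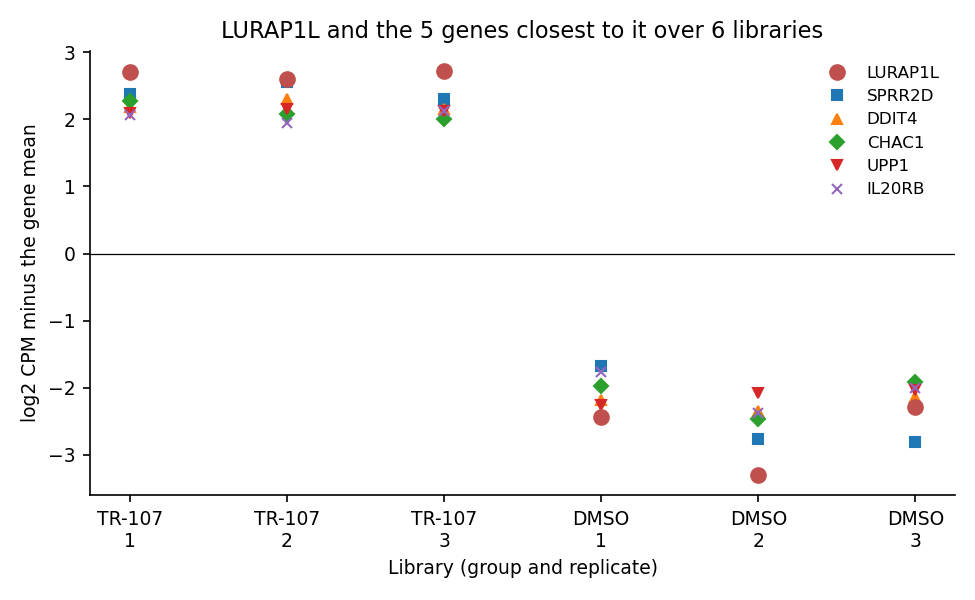
Log2 CPM minus the gene's own mean in each of the 6 libraries for LURAP1L and the 5 genes closest to it. All 6 genes stand above their mean in the 3 TR-107 libraries and below it in the 3 DMSO libraries. This shared pattern follows from choosing the 5 by likeness over these same libraries. LURAP1L has its lowest value in DMSO replicate 2.

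The genes around the complex were taken from 6 lists of 74 genes, of which 70 were tested, and 25 were higher and 26 lower after TR-107, or 72.9% called against 57.8% of all genes tested. The share called depends on gene level, and here and for each list below it was not compared with genes of matched level. The median log2 fold change of the 70 was 0.04, against 0.0121 over all genes tested. Directions were mixed in every list. Among the kinases nearest to MRCK and their GTPase, 2 of 6 rose, 3 fell and 1 was not called, or 83.3% called. CDC42, the GTPase that recruits MRCK, fell to 241, 234 and 258 CPM in TR-107, against 268, 280 and 268 CPM in DMSO (log2 fold change -0.16 ± 0.04, SE; edgeR adjusted p = 0.00199). CDC42BPG, the third MRCK gene, was not called, at 43.6 ± 4.36 CPM in TR-107 and 42.7 ± 0.953 CPM in DMSO (SD, n = 3 each; log2 fold change 0.03 ± 0.08, SE; edgeR adjusted p = 0.791). DMPK, the myotonic dystrophy kinase, rose (0.42 ± 0.10, SE), and CIT, the citron kinase of cell division, fell (-0.23 ± 0.07, SE), a call lost without TR-107 replicate 2 or without DMSO replicate 1.

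Of 18 tested activators and inhibitors of CDC42, 8 rose, 6 fell and 4 were not called, and the median of their log2 fold changes was 0.40. That was 77.8% called, against 57.8% of all genes tested. FGD6, an exchange factor gene, had 80.6, 80.7 and 93.6 CPM in TR-107, against 38.3, 39.5 and 37.7 CPM in DMSO, which was 2.21-fold higher (edgeR adjusted p = 3.78e-18). PLEKHG1 (1.62) and DNMBP, also called Tuba (0.58), are further exchange factors that rose on the log2 scale. The exchange factors DOCK9 (-0.38) and ITSN1 (-0.35) fell on the log2 scale.

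Of 17 tested other effectors of CDC42, 7 rose, 6 fell and 4 were not called. That was 76.5% called, against 57.8% of all genes tested. The CDC42-binding Borg proteins CDC42EP1 (0.49) and CDC42EP3 (0.67) and the scaffold IQGAP3 (0.49) rose on the log2 scale. PARD6G (-0.77), a polarity adaptor, BAIAP2 (-0.34), which couples CDC42 to membrane protrusion, and PAK4 (-0.23), a kinase, fell.

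Non-muscle myosin II is the motor whose light chains MRCK phosphorylates. Of 13 tested genes of the motor, its kinase and its phosphatase, 4 rose, 3 fell and 6 were not called, which was 53.8% called, against 57.8% of all genes tested. The heavy chain MYH9 had 1206, 1192 and 1260 CPM in TR-107, against 837, 870 and 803 CPM in DMSO, and was 1.46-fold higher (edgeR adjusted p = 2.39e-16). The heavy chain MYH10 had 70.5, 77.4 and 69.6 CPM in TR-107, against 105, 102 and 109 CPM in DMSO (log2 fold change -0.54 ± 0.06, SE; edgeR adjusted p = 8.54e-11). Neither gene overlapped between groups, as was so for 62.4% of all genes tested, and they moved in opposite directions. The third heavy chain, MYH14, rose (0.32), as did the regulatory light chain MYL12A (0.39), while the regulatory light chain MYL9 (-0.63) and the essential light chain MYL6 (-0.19) fell on the log2 scale. MYL12A has a near-identical copy in MYL12B, and MYL6 has processed pseudogenes, so the split of their reads is uncertain. None of the 4 tested phosphatase genes was called by edgeR, and 1 of them, PPP1CB, had an unadjusted p under 0.05 (adjusted p = 0.0561).

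The LIM kinase and cofilin branch is a further target of MRCK that controls actin filament turnover. Of 9 genes of this branch, 1 rose, 7 fell and 1 was not called, and the median of their log2 fold changes was -0.33. That was 88.9% called, against 57.8% of all genes tested. Of all genes tested, 28.6% were called lower. CFL1, the main cofilin, had 582, 577 and 612 CPM in TR-107, against 854, 878 and 855 CPM in DMSO (log2 fold change -0.55 ± 0.04, SE; edgeR adjusted p = 1.54e-16). CFL1 has processed pseudogenes too, with the same limit. Its paralog CFL2 (-0.74) and PDXP (-0.63), a cofilin phosphatase, also fell. The 1 that rose was SSH1, another cofilin phosphatase, at 279 ± 9.87 CPM in TR-107 and 193 ± 3.44 CPM in DMSO (SD, n = 3 each).

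MYO18A is bound by GOLPH3 at the Golgi and is also tied to the kinase PAK2. Of 7 tested genes of these 2 sides, 3 rose, 1 fell and 3 were not called, which was 57.1% called, against 57.8% of all genes tested. GIT1 and GIT2, the scaffolds of the PAK2 side, were not called, so that every call in this list was of a Golgi gene. With library size alone in place of TMM, 2 rose and 2 fell. PAK2 itself, counted among the other CDC42 effectors, was called lower. Its log2 fold change was -0.16 ± 0.05 (SE, edgeR adjusted p = 0.00331). GOLPH3L had 40.7, 44.7 and 38.9 CPM in TR-107, against 26.2, 26.0 and 26.5 CPM in DMSO, which was 1.58-fold higher (edgeR adjusted p = 1.18e-08). GOLPH3 itself rose by 0.18 on the log2 scale, a call lost with library size alone and without DMSO replicate 1. PI4KB (0.38), which makes the lipid that GOLPH3 binds, rose, and SACM1L (-0.29), which removes its phosphate, fell.

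**Figure D5:**
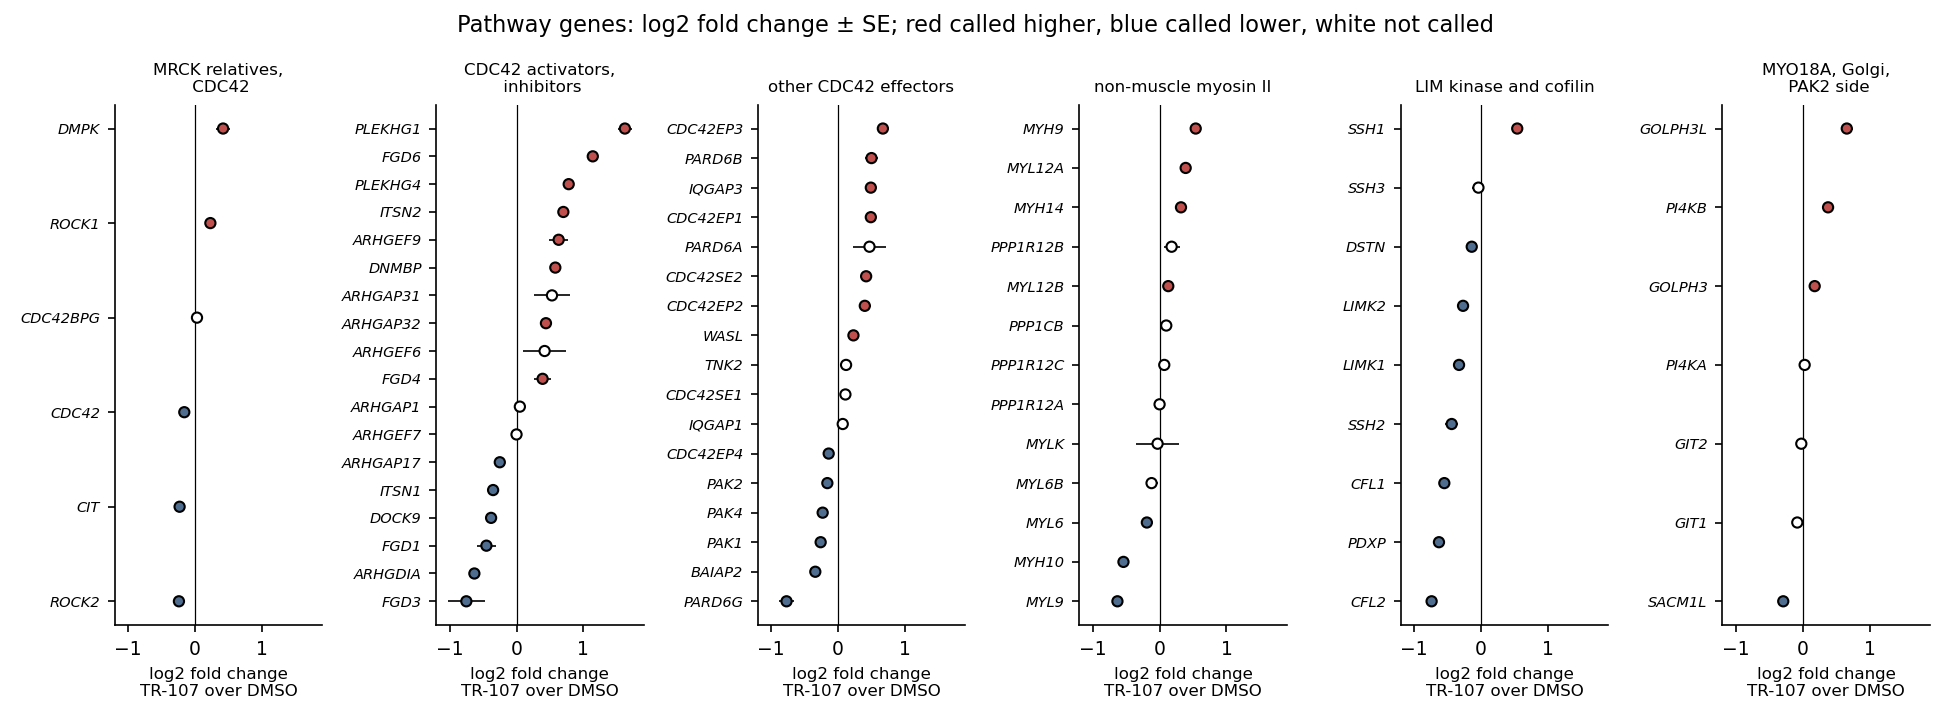
Log2 fold change, TR-107 over DMSO, ± SE for the 70 tested genes of the 6 lists, sorted within each list, with genes called higher in red, called lower in blue and not called in white. Calls in both directions appear in every list. In the LIM kinase and cofilin list 7 of 9 genes were called lower, against 28.6% of all genes tested.

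The libraries held 17264039 to 22243758 gene counts in TR-107 and 18344471 to 23708135 in DMSO, and 3 counts corresponded to 0.124 to 0.175 CPM. Of 12 epithelial markers 11 had counts, at 6189 to 6328 CPM in sum in TR-107 and 5479 to 5533 CPM in DMSO. CDX1 was at 0, and VIL1 and LGALS4, markers of differentiated intestinal cells, averaged 0.148 CPM or less in each group. Among immune markers CD68 had counts (9.92 to 14.0 CPM in TR-107 and 4.72 to 6.74 CPM in DMSO), and PTPRC and CD3E were at 0. The 5 fibroblast markers summed to 16.2 to 18.3 CPM in TR-107 and 13.3 to 16.5 CPM in DMSO, with COL3A1 and DCN at 0. Nearly all of this was COL1A1, which averaged 17.2 CPM in TR-107 and 14.3 CPM in DMSO. The 4 endothelial ones summed to 0.493 to 0.993 CPM in TR-107 and 0.331 to 0.696 CPM in DMSO, with CDH5 at 0. The 5 melanocyte ones summed to 2.10 to 3.51 CPM in TR-107 and 2.40 to 3.37 CPM in DMSO, with TYR at 0. Most of the melanocyte sum was PMEL, which averaged 2.09 CPM in TR-107 and 2.17 CPM in DMSO. The part of these markers in the results was not tested.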

How the data were processed

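Polyadenylated RNA of HCT116 cells was read as pairs on an Illumina instrument, per the labels' protocols. The authors deposited raw counts per gene ID, made with FastQC, Trimmomatic, HISAT2 on hg38 and featureCounts, per the submitters' processing notes. The sources used here give no versions, annotation, strand or multi-mapping settings, so reads of overlapping or near-identical genes may be split or lost. Of 28395 gene IDs, 27745 matched a symbol in a RefSeq table of GRCh38.p14.

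The counts were tested with edgeR 4.0.16 in R 4.3.3 (quasi-likelihood, robust, TMM scaling, filterByExpr, group alone as design) and adjusted by Benjamini-Hochberg over all 13767 genes tested, at 0.05. SE is the absolute log2 fold change over the square root of F. The test was checked on simulated counts. Centred log2 CPM used a prior count of 2. Exon lengths came from GENCODE release 29.

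The members, lists, motifs and tests were chosen with earlier results of these data known. Named beside the 6 members were up to 3 called genes per direction and list with the smallest p, the tested neighbours within 2 Mb, and the 5 genes closest to LURAP1L. Names outside this rule (genes at 0, not called, cell type markers, PAK2, or needed to explain an overlap) were chosen after their values were seen. Some genes that the rule names are not reported here. Alternatives were other scalings (RLE, upper quartile, none), other filters, limma-voom (limma 3.58.1), DESeq2 1.42.0, a block for the replicate number, and leaving out each library. Within groups, no pair of libraries agreed within sampling noise (chi-square per degree of freedom 3.92 to 6.05), so none was treated as a repeat deposit of another. This does not show that the libraries came from separate cultures. Intervals and floors cover counting error only. Plots used matplotlib 3.10.9.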

Additional observations from a re-analysis of the deposited data

How the results depend on the processing

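CDC42BPA, CDC42BPB and MYO18A kept their direction and their call under all 14 alternatives, with log2 fold changes of 0.37 to 0.46 for the kinases and 0.14 to 0.25 for MYO18A (adjusted p up to 0.0480). LURAP1L ranged from 5.09 without DMSO replicate 2 to 5.61 without DMSO replicate 3, and was 5.20 with the counts of LURAP1L-AS1 added to it. Of the 51 called list genes, 9 lost the call under at least 1 alternative and 0 changed direction. Leaving out 1 library moved the log2 ratio of LURAP1L-AS1 between 0.60 and 1.69 and that of LURAP1 between -0.45 and 2.59, with -0.26 without DMSO replicate 3. It moved the difference in the CDC42BPA share (0.172 percentage points) between -0.307 and 0.533, so this difference has no settled sign. These counts are the limit for LURAP1L-AS1 and LURAP1, for which limma-voom, the block and the minimum of 1 CPM gave no value. Replicate numbers did not pair the libraries (correlations of same-numbered deviations -0.03, -0.02 and 0.05, and not every library correlated best with its own number), and with the replicate block 7918 genes were called, against 7956 without it.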
